A study of Mus musculus with 15 samples.

Results

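Basal cell carcinoma nests that remained in mouse skin after 28 days of vismodegib were set against nests of untreated tumours labelled as lacking Ki67, across all genes with enough reads. Membership followed the sample labels alone: 5 samples of vismodegib nests and 5 of untreated Ki67-negative nests, 10 of the 15 samples of the series. The other 5, untreated nests labelled Ki67-positive, shared the model fit and are quoted beside a result where they help to place it. Nests were cut from fresh frozen skin by laser capture and their polyadenylated RNA was sequenced. Every mouse, treated or not, carried the K14Cre-ER driver, the floxed alleles Ptch1fl/fl and p53fl/fl, and the Lgr5GFP reporter, so loss of the Hedgehog receptor Ptch1 and of p53 was common to all groups. The contrast sets drug against no drug within that genotype, but the untreated nests were also chosen by Ki67. The vismodegib labels name no Ki67 status, so drug and Ki67 selection both enter the contrast. The keratin 14 promoter restricts Cre to basal keratinocytes of the epidermis and hair follicle, which limits the model to tumours started in those cells. The labels tie no sample to an animal and give no age. Whether nests of a group came from separate mice is therefore unknown. If some share a mouse, p-values are too small, and the spread between samples may be partly technical.

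Hedgehog signalling runs through the receptor PTCH1, which holds the transducer Smoothened in check at the primary cilium. Where PTCH1 is lost, Smoothened acts through the GLI transcription factors to drive growth of follicle-like basal cells, and GLI in turn induces Gli1, Ptch1 and Hhip, which serve as readouts of the pathway. Vismodegib binds and blocks Smoothened. Ki67, the product of Mki67, is made in cycling cells and is absent from resting ones. The Ki67-negative label does not itself say how nests were scored, and Mki67 was still at 234 to 408 CPM in them.

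Depth was 4887381 to 10328822 counts over the 10 samples. Keratinocyte genes were high in every sample: the summed level of 8 keratinocyte markers was 13700 to 17810 CPM (counts scaled to library size, so that libraries can be compared) in the vismodegib nests and 6575 to 9960 CPM in the Ki67-negative nests. One Ki67-negative sample, number 5, stood apart on the second principal component of all genes and held 19669 genes with a count, against 21842 to 22325 in the other 4. Ki67-negative sample 4 carried more immune transcripts than its group, with Il1b at 323 CPM against at most 12.1 CPM in the rest. Xist exceeded Ddx3y in vismodegib samples 1 to 3 and in Ki67-negative sample 5, so the sexes were unevenly spread over the groups. The floxed gene Trp53 was at 80.9 to 137 CPM in the vismodegib nests and 116 to 154 CPM in the Ki67-negative nests, and reads inside and outside the deleted part were not separated. The sources used here give no sequencing run or date, and a run shared by one group could not be told apart from that group.

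The label of the reference group was visible in the transcriptome. Against the Ki67-positive nests, 30 of 17282 genes (0.174%) were called in the Ki67-negative nests at an adjusted p under 0.05, all 30 lower and 0 higher, with 1154 genes at an unadjusted p under 0.05 in either direction (edgeR quasi-likelihood test, Benjamini-Hochberg adjustment). The 30 included Mki67, the motors Kif11, Kif14, Kif15, Kif20b and Kif23, the kinetochore genes Cenpe, Cenpf, Ndc80, Nuf2 and Knl1, and the cytokinesis genes Anln, Cit, Cep55 and Racgap1. Mki67 itself had a log2 fold change of -1.10 ± 0.20, Ki67-negative minus Ki67-positive (adjusted p = 0.0291). DESeq2 called 88 genes, 83 of them lower, and limma voom 15. This contrast depended on single samples: 0 genes were called without Ki67-negative sample 3, 4 or 5 or without Ki67-positive sample 4, 2 without Ki67-positive sample 5 and 12 without Ki67-negative sample 2.

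Between the vismodegib and the Ki67-negative nests, 2658 genes (15.4%) were higher after vismodegib and 2855 (16.5%) were lower, together 5513 of 17282 genes (31.9%). More than 2-fold changes made up 1395 of the higher and 1825 of the lower genes. In 3550 genes (20.5%) all 5 samples of one group lay above all 5 of the other, 1793 of them higher and 1757 lower after vismodegib. The median log2 fold change over all tested genes was -0.03. The called shares over all genes are the background for each count of listed genes below. Several lists lay near or below the 31.9%: 38.9% of sebaceous genes, 37.5% of T and NK markers, 40.0% of class I presentation genes and 22.2% of glycolysis genes were called.

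**Figure D1:**
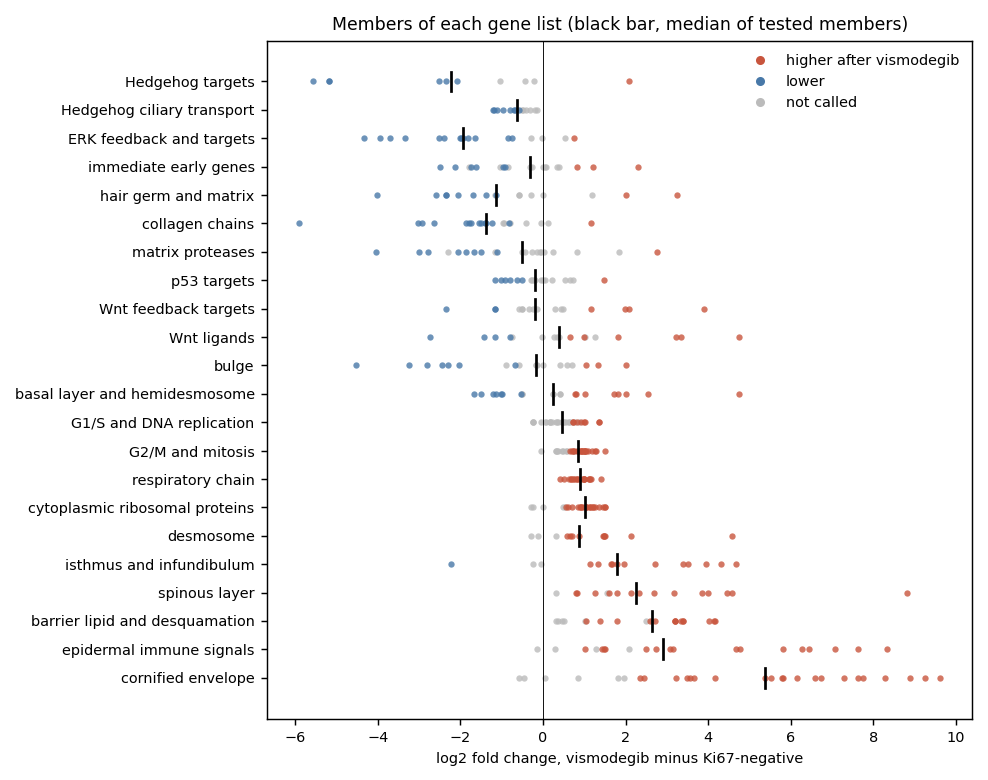
Log2 fold change of each tested gene in 22 lists, vismodegib minus Ki67-negative; each point is a gene, coloured by its call, and the black bar is the list's median. The cornified envelope list has the highest median (5.37) and the Hedgehog targets the lowest (-2.22), while the G2/M list sits at 0.84 with no member called lower.

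Hedgehog output fell in the treated nests. Of 10 tested target genes, 6 were lower and 1 was higher after vismodegib, with a median log2 fold change of -2.22. Hhip, a decoy that binds Hedgehog ligand outside the cell, was at 8.79, 3.32, 13.6, 29.7 and 10.6 CPM in vismodegib samples 1 to 5 and at 817, 557, 625, 465 and 674 CPM in Ki67-negative samples 1 to 5. The groups were separated by more than 10-fold in every pairing of samples, and the log2 fold change ± SE, vismodegib minus Ki67-negative here and below, was -5.56 ± 0.48 (adjusted p = 9.74e-07). Gli1, the transcription factor that amplifies the signal, was at 28.8, 126, 112, 89.6 and 21 CPM in the vismodegib nests. In the Ki67-negative nests it was at 321, 356, 414, 249 and 585 CPM, a log2 fold change of -2.35 ± 0.46 (adjusted p = 0.00133). Ptch1 itself, whose floxed allele every animal carried, was at 148, 876, 664, 923 and 142 CPM after vismodegib and 3727, 2953, 3643, 2053 and 3356 CPM without it (log2 fold change -2.51 ± 0.47, adjusted p = 0.000977). No vismodegib sample reached a Ki67-negative sample for Hhip, Gli1 or Ptch1.

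The treated nests differed among themselves. Vismodegib samples 1 and 5 were the lowest of the 5 for Ptch1, Gli1 and Gli2, and the other 3 kept Ptch1 between 664 and 923 CPM. Hhip gave another order, with vismodegib sample 2 the lowest and sample 5 in the middle. Gli2, the main activator of the pathway, was at 68, 234, 209, 147 and 51.3 CPM against 458, 489, 406, 303 and 600.2 CPM (log2 fold change -1.67 ± 0.35, adjusted p = 0.00224). Ccnd2, which encodes the G1 cyclin D2 and is listed among Hedgehog targets, went the other way: 463, 541, 330.1, 302 and 429.5 CPM after vismodegib and 99.1, 161, 76.7, 90 and 66 CPM without it, with no overlap (log2 fold change 2.07 ± 0.27, adjusted p = 2.27e-05). Ccnd1, the cyclin D1 gene, spanned 109 to 379 and 187 to 415 CPM and was not called (adjusted p = 0.278). Foxl1 and Igfbp3 were also among the lower targets, with log2 fold changes of -5.18 ± 0.90 and -2.09 ± 0.45. Mycn and Sfrp1 were not called, though Mycn (log2 fold change -1.03 ± 0.40, adjusted p = 0.0567) passed without vismodegib sample 2 (adjusted p = 0.0365), vismodegib sample 4 (0.0389) or Ki67-negative sample 4 (0.0298), and with DESeq2 (0.0208) and limma voom (0.0312).

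**Figure D2:**
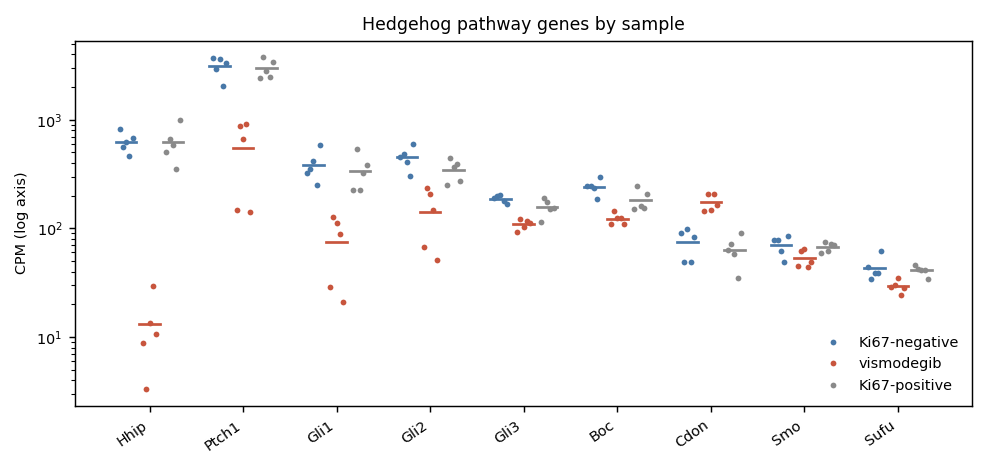
CPM on a log axis of 9 Hedgehog pathway genes in each sample of the 3 groups, with a bar at each group mean. Hhip, Ptch1, Gli1 and Gli2 of the vismodegib nests lie below both untreated groups, Cdon lies above them, and vismodegib samples 1 and 5 form the low pair for Ptch1 and Gli1.

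Genes that carry the signal, rather than report it, were lower in part. Of 20 tested ligands, co-receptors and transducers, 10 were lower and 1 was higher, with a median log2 fold change of -0.52, and 2 were higher without vismodegib sample 4 or without Ki67-negative sample 4. Boc, a co-receptor for the ligand, was at 109.8, 145, 124, 125 and 109 CPM after vismodegib and 244, 246, 234, 186 and 299 CPM in Ki67-negative nests (log2 fold change -0.98 ± 0.16, adjusted p = 0.000125). Cdon, its close relative, was the 1 that rose, at 146, 207, 148, 209 and 163 CPM after vismodegib against 91.2, 48.9, 99.4, 49.5 and 82.6 CPM (log2 fold change 1.23 ± 0.24, adjusted p = 0.000806). The 2 related co-receptors moved in opposite directions, each with no overlap between groups. Gli3, the GLI protein that acts mainly as a repressor, was at 93.1 to 123 CPM against 168 to 202 CPM and Kif7, a kinesin of the cilium tip, at 6.32 to 19.5 CPM against 22.3 to 67.7 CPM, both lower after vismodegib. Smo, which encodes the drug's target, was at 44.1 to 65.2 CPM against 48.9 to 84.7 CPM and was not called (log2 fold change -0.41 ± 0.16, adjusted p = 0.0654), although it passed without Ki67-negative sample 4 (adjusted p = 0.0173), without vismodegib sample 2 (0.0491), without vismodegib sample 3 (0.0443), with upper quartile scaling (0.0491) and with a term for Xist (0.0263). Of 14 tested genes for transport in the cilium, 8 were lower and 0 higher (median -0.63). Dync2h1, the motor that carries cargo back from the cilium tip, was at 108 to 141 CPM against 194 to 308 CPM, and Ift57 and Ift122, parts of the transport trains, had log2 fold changes of -1.22 ± 0.21 and -1.18 ± 0.24.

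Cell division genes were higher in the residual nests than in the nests labelled Ki67-negative. Only the untreated nests were chosen by Ki67, so drug and Ki67 selection cannot be told apart in this difference. Of 32 tested genes of G2 and mitosis, 21 were higher after vismodegib and 0 were lower (median log2 fold change 0.84, against -0.03 over all genes and a background of 15.4% called higher). Mki67, the gene behind the label, was at 847, 791, 669, 489 and 618 CPM in the vismodegib nests. In the Ki67-negative nests it was at 408, 407, 234, 353 and 402 CPM, and in the Ki67-positive nests at 772, 587, 591, 782 and 1147 CPM. Every vismodegib sample exceeded every Ki67-negative one (log2 fold change 0.92 ± 0.20, adjusted p = 0.00189). The vismodegib and Ki67-positive samples overlapped (log2 fold change -0.18, adjusted p = 0.538). Anln, a scaffold of the cleavage furrow, was at 126, 176, 131, 102 and 89.2 CPM against 56.5, 68.4, 36.8, 49.5 and 46.5 CPM (log2 fold change 1.28 ± 0.22, adjusted p = 0.000242). Ccna2, the cyclin of S phase and G2, was at 83.1, 77.2, 81.4, 68.3 and 67.6 CPM against 58.6, 44.3, 24.4, 30.3 and 27.7 CPM (log2 fold change 1.02 ± 0.22, adjusted p = 0.00173). For both genes all 5 vismodegib samples lay above all 5 Ki67-negative ones. Ttk, a kinase of the spindle checkpoint, had vismodegib samples 1 and 2 highest, at 35.3 and 24.2 CPM, with the other 3 at 12.9 to 13.1 CPM and the Ki67-negative nests at 4.85 to 8.87 CPM (log2 fold change 1.49 ± 0.31, adjusted p = 0.00144).

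The count of mitosis genes depended on the samples more than their direction did. It was 13 of 32 without vismodegib sample 2, 12 of 32 without Ki67-negative sample 3 and 13 of 32 with a term for Xist, in each case with 0 lower. Leaving out Ki67-negative sample 4 gave 20, and leaving out sample 5 gave 17. Plk1, Birc5 and Cenpa, all mitosis genes, were not called, and Plk1 had a log2 fold change of -0.04. The list's median against the Ki67-positive nests was -0.44 for the vismodegib samples and -1.23 for the Ki67-negative samples. These medians share the Ki67-positive samples and are given side by side only. Single genes differed: Kif15 was at 46.9 to 60.3 CPM after vismodegib and 61.9 to 150 CPM in the Ki67-positive nests, without overlap. Mki67, Anln, Ttk and Ccna2 overlapped between those groups.

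**Figure D3:**
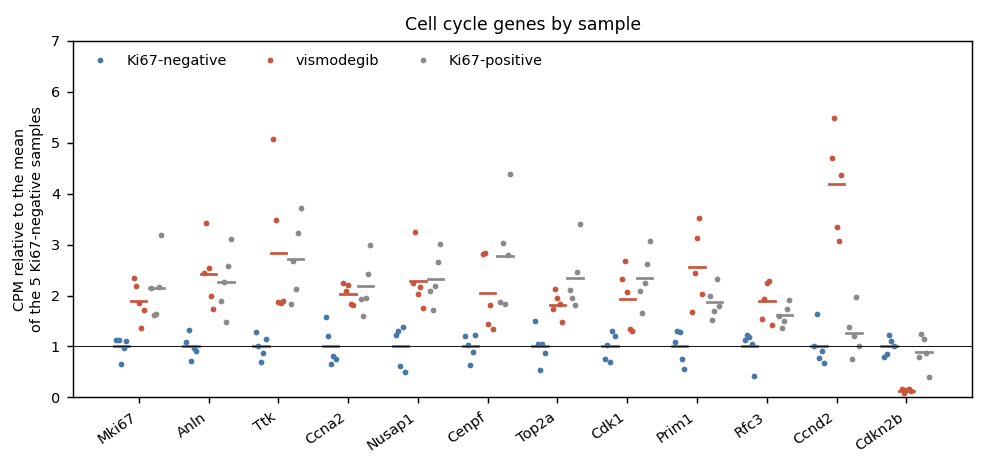
CPM of 12 cell cycle genes in each sample, divided by the mean of the 5 Ki67-negative samples, with bars at group means. Mki67, Anln, Ttk and Ccna2 of the vismodegib nests overlap the Ki67-positive nests and lie above the Ki67-negative ones, Ccnd2 lies above both and Cdkn2b below both. Cenpf has a median of 124 CPM in the vismodegib nests and 191 CPM in the Ki67-positive nests.

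Replication genes moved less. Of 32 tested genes of G1/S and DNA replication, 8 were higher and 0 lower (median 0.47). Prim1, the primase subunit that starts new DNA strands, was at 22.7, 32.9, 42.1, 47.4 and 27.2 CPM after vismodegib and 14.5, 17.6, 17.4, 10.3 and 7.63 CPM in Ki67-negative nests (log2 fold change 1.36 ± 0.25, adjusted p = 0.000484). Rfc3, a clamp loader, was at 14.1 to 22.7 CPM against 4.19 to 12.2 CPM, without overlap (log2 fold change 0.92 ± 0.26, adjusted p = 0.0109). None of the MCM helicase genes on the list was called. Without both Ki67-negative samples 4 and 5, the count of replication genes was 5.

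Among the brakes on the cycle, both genes of the INK4 locus were low in the treated nests. Cdkn2b, which encodes the inhibitor p15 of CDK4 and CDK6, was at 9.40, 5.06, 8.41, 10.2 and 7.33 CPM in the vismodegib nests and 47.8, 51.3, 73.3, 65.5 and 60.1 CPM in the Ki67-negative nests (log2 fold change -2.87 ± 0.27, adjusted p = 5.75e-07). Its neighbour Cdkn2a, which encodes p16 and p19ARF, had 3 counts over the 5 vismodegib samples and 65 over the Ki67-negative ones, a ratio of 26.7 (95% interval 8.73 to 133, counting error only). Neither gene overlapped between the groups. Over the whole list of 18 inhibitors and quiescence genes, 4 were higher and 4 lower, with a median of -0.02 (44.4% called, against 31.9% of all genes tested). The INK4 family genes outside that locus were among the 4 higher (log2 fold changes 0.75 and 1.09, adjusted p = 0.0467 and 0.0373). Tob1, an antiproliferative gene, was higher, at 72.2 to 105 CPM against 37.4 to 59.7 CPM, and Cdkn1b, which encodes p27, was not called (adjusted p = 0.537). The 4 higher fell to 2 without vismodegib sample 1, without vismodegib sample 5 or without Ki67-negative sample 3. In animals with floxed p53, 6 of 18 tested p53 targets were lower and 1 higher, with 2 higher without vismodegib sample 2 or without Ki67-negative sample 2, 4 or 5. In either direction 38.9% were called, close to the 31.9% of all genes tested. The lower ones included Plk2 (log2 fold change -0.92 ± 0.21) and Mdm2 (log2 fold change -0.5 ± 0.13). Without Ki67-negative sample 3, 3 were lower. Perp, the 1 that rose (log2 fold change 1.48 ± 0.24), also builds desmosomes.

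Mitosis genes share a short promoter element, the cell cycle homology region (CHR), at which the MuvB complex represses them in resting cells and helps to switch them on in dividing cells. The bases upstream of 4 higher mitosis genes are shown because they hold the element close to the start site. They come from RefSeq on GRCm38.p6, run 5′ to 3′ on the gene's strand over the 130 bases before the start, and carry the element in capitals:
Mki67: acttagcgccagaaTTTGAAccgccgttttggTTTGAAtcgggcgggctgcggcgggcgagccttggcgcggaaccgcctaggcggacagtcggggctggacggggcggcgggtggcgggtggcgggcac
Cdk1: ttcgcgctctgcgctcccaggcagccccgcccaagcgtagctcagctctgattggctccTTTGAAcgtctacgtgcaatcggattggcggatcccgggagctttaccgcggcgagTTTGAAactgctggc
Cdc20: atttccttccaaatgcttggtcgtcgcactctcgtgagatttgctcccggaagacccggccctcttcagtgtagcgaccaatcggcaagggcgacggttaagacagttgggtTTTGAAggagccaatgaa
Kif11: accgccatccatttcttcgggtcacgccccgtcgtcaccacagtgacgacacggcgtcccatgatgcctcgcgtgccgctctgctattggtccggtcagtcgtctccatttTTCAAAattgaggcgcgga
They lie at chr7:135716380-135716509 (minus strand), chr10:69352913-69353042 (minus strand), chr4:118437344-118437473 (minus strand) and chr19:37376252-37376381 (plus strand), in that order. The search used TTTGAA and TTCGAA on both strands and was chosen after the rise of mitosis genes was seen. TTTGAA is also part of CTTTGAA, a TCF/LEF letter string. In Mki67 the element begins 116 and 98 bases before the start, in Cdk1 71 and 15, in Cdc20 18 and in Kif11 19. Over the window from 250 bases before to 50 after the start, 23 of the 27 mitosis genes with a promoter entry (85.2%) held a match, against 17.0% of 12241 tested genes and 21.7% of 27025 genes in all. In Kif11 the letters stand as TTCAAA, the same element on the opposite strand. The 3 genes beside Mki67 were called higher as well: Cdk1 at 9.95 to 20.4 CPM against 5.25 to 9.96 CPM (log2 fold change 0.95 ± 0.27), Cdc20 at 9.12 to 25.1 against 5.65 to 8.76 CPM (log2 fold change 0.94 ± 0.29) and Kif11 at 50.4 to 87.7 against 20 to 53.4 CPM (log2 fold change 1.0 ± 0.26). The call of Cdc20 was lost without vismodegib sample 2 (adjusted p = 0.0698) and without Ki67-negative sample 3 (0.0523), with limma voom (0.0754) and with a term for Xist (0.0802). The E2F strings TTTCGCGC and TTTGGCGC were in 10 of 26 replication gene promoters (38.5%), against 1.58% of tested genes. The GLI string GACCACCCA was in 78 of all 27025 genes (0.289%), in 11 of the 1922 lower genes with an entry (0.572%), in 4 of the 1966 higher ones (0.203%) and in 0 of 4 Hedgehog targets. These matches describe letters in a window and do not show binding.

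Epidermal differentiation genes were higher as a group, and the cornified envelope list had the highest median of the lists examined. The samples are bulk, so here and below tumour cells were not separated from any normal keratinocytes cut with them. Numbers of differentiated cells and RNA per cell cannot be told apart either. In normal skin, keratinocytes leave the basal layer, make spinous keratins and desmosomes, and then lay down the cornified envelope and its lipids. Of 16 tested spinous genes, 14 were higher and 0 lower (median log2 fold change 2.24). Of 27 cornified envelope genes, 21 were higher and 0 lower (median 5.37, with 1 lower without vismodegib sample 4), and of 21 genes for barrier lipids and desquamation 14 were higher and 0 lower (median 2.65). Krt77, a keratin of suprabasal cells, was at 1252, 718, 892, 314 and 533 CPM after vismodegib and at 1.61, 1.13, 1.62, 2.42 and 1.35 CPM in the Ki67-negative nests (log2 fold change 8.82 ± 0.56, adjusted p = 4.96e-08). Krt10, the main spinous keratin, was at 1024, 972, 959.7, 1232 and 867 CPM against 122, 70.4, 37, 38.7 and 48.2 CPM (log2 fold change 4.0 ± 0.34, adjusted p = 5.76e-07). Lor, which encodes the envelope protein loricrin, was at 162, 157, 113, 48.5 and 96 CPM against 0.645, 1.42, 2.22, 1.21 and 0 CPM (log2 fold change 6.74 ± 0.54, adjusted p = 2.23e-07). All 3 were low in every Ki67-negative sample and high in every vismodegib sample. For Krt77 and Lor, a rule that named them required groups without overlap, found in 20.5% of all genes tested. Vismodegib sample 4 was the lowest of its group for Krt77 and Lor and the highest for Krt10. Flg, which encodes filaggrin, was at 439, 215, 464, 379 and 423 CPM against 1.77, 22.8, 3.63, 4.83 and 0.748 CPM, with Ki67-negative sample 2 the high one of its group (log2 fold change 5.80 ± 1.02, adjusted p = 0.000823).

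Several late envelope genes were close to absent from the untreated nests. Lce1m had 3 counts over the 5 Ki67-negative samples and 1872 over the vismodegib samples, a ratio of 507 (95% interval 173 to 2460, counting error only). Lce1c had 2 counts against 918, a ratio of 373 (103 to 3090), and Sprr4 2 against 6150, a ratio of 2500 (692 to 20600). Sprr4 was uneven among treated nests, at 91.3, 3.16, 256, 68.7 and 313 CPM, with vismodegib sample 2 the low one, and limma voom gave it an adjusted p of 0.134. Reads unique to one gene are fewer in near-identical families such as Lce1, so the split among its members is uncertain. Abca12, which loads the lipids of the barrier, was at 446, 328, 349, 284 and 391 CPM against 27.7, 35.3, 8.28, 76.4 and 25 CPM (log2 fold change 3.38 ± 0.56, adjusted p = 0.000433). Lipm and Aloxe3, enzymes of epidermal lipid, had log2 fold changes of 2.70 ± 0.32 and 4.15 ± 0.67.

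A pair of these promoters is shown for the AP-1 site, TGANTCA, which is bound by FOS and JUN proteins and lies in capitals in the 130 bases upstream of genes that rose strongly (RefSeq, GRCm38.p6, 5′ to 3′ on the gene's strand):
Lor: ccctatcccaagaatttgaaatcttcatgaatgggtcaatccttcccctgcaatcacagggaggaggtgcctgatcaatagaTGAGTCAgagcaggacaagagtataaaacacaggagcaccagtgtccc
Flg: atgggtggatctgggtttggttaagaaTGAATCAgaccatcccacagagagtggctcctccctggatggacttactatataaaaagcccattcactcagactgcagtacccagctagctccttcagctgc
They span chr3:92083143-92083272 (minus strand) and chr3:93273416-93273545 (plus strand). TGANTCA, searched on both strands, was in 7 of 26 cornified envelope promoters (26.9%) and 4 of 8 spinous promoters. Over tested genes the share was 6.99% and over all genes 8.97%. The string can share letters with the CHR and TCF/LEF strings. Among the genes called higher, 9.1% of 1966 held it. Some of the envelope genes with a match were not called, and no Lce1 gene was among those with a match. Most members of the envelope list sit in one gene cluster and share sequence, so their promoters are not independent.

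**Figure D4:**
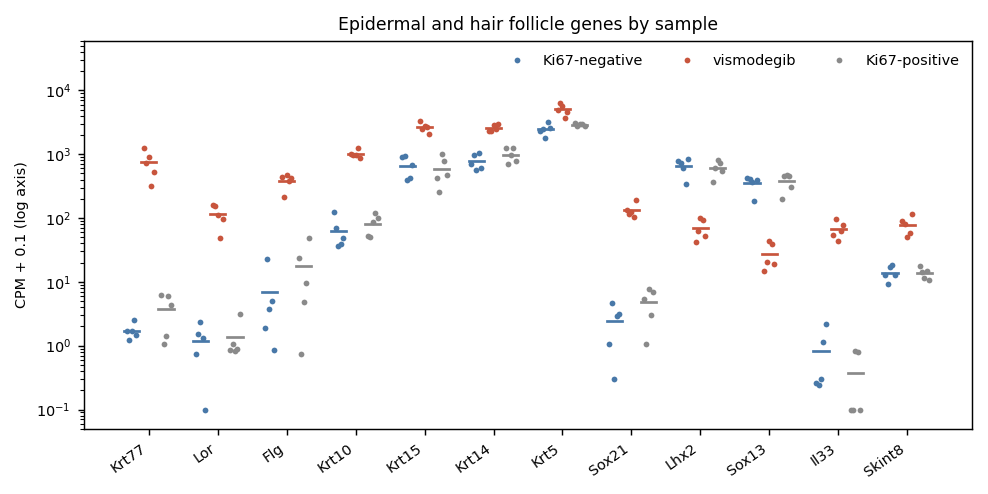
CPM plus 0.1 on a log axis for 12 epidermal and hair follicle genes in each sample of the 3 groups, with bars at group means. Krt77, Lor, Flg, Krt10, Sox21, Il33 and Skint8 of the vismodegib nests lie above every untreated sample, and Lhx2 and Sox13 below every one.

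The basal keratins rose along with the suprabasal ones. Krt14 was at 2333, 2272, 2915, 2516 and 3002 CPM after vismodegib and 712, 976, 573, 1046 and 616 CPM in Ki67-negative nests (log2 fold change 1.73 ± 0.20, adjusted p = 4.51e-06). Krt15, a keratin of basal and bulge cells, was at 3329, 2444, 2771, 2649 and 2079 CPM against 901, 933, 388, 426 and 673 CPM (log2 fold change 2.0 ± 0.33, adjusted p = 0.000299), and Krt5 at 3725 to 6279 CPM against 1786 to 3210.5 CPM (log2 fold change 1.01 ± 0.15). None of the 3 overlapped between groups. Per length, the median deposited RPKM in the vismodegib nests was 615 for Krt5, 429 for Krt15, 396 for Krt14, 109 for Krt10 and 92.8 for Krt77. In the Ki67-negative nests the corresponding levels were 316, 110.0, 111, 5.60 and 0.211, so basal keratins led in both groups. Of the 21 tested basal layer and hemidesmosome genes, 8 were higher and 7 lower. The higher ones included Ptn (log2 fold change 2.53 ± 0.27), a growth factor, and Col17a1 (log2 fold change 0.81 ± 0.20), a collagen of the hemidesmosome, and the lower ones the laminin gene Lama3 (log2 fold change -1.0), the integrin Itga3 (log2 fold change -1.21) and the anchoring fibril collagen Col7a1 (log2 fold change -1.49).

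Most desmosome genes tested were higher, and regulators of differentiation changed in both directions. Of 13 desmosome genes, 10 were higher and 0 lower (median 0.86). Dsp, the plaque protein desmoplakin, was at 4247, 3668, 4651, 3570.4 and 4712 CPM against 1499, 1668, 1156, 1922 and 1206 CPM (log2 fold change 1.48 ± 0.15, adjusted p = 1.14e-06). Of 19 differentiation transcription factors, 9 were higher and 3 lower. Zfp750, which promotes terminal differentiation, was at 268, 164, 296, 213 and 325 CPM against 66, 59.8, 35.3, 72.8 and 68.8 CPM (log2 fold change 2.06 ± 0.23, adjusted p = 4.81e-06). Cebpa, Klf4 and Grhl1, further activators of the programme, had log2 fold changes of 1.86 ± 0.25, 1.5 ± 0.27 and 1.15 ± 0.20, each without overlap. Prdm1, a repressor used in sebocytes and in late differentiation, was lower, at 111, 69.7, 174, 173 and 99.9 CPM against 656, 579, 468, 490.1 and 735 CPM (log2 fold change -2.22 ± 0.22, adjusted p = 9.65e-07). Trp63, the master regulator of the epithelium, did not pass (log2 fold change 0.04). The wound keratin Krt16 was not called, and the 16 genes of the wound list gave 1 higher, Il33, and 1 lower, Il1b. The Il1b call was lost without any 1 of the vismodegib samples (adjusted p 0.0584 to 0.0764) and without Ki67-negative sample 4 (0.543), and also with limma voom (0.494) and with a term for Xist (0.12). Without that last sample 5 wound genes were higher, among them Il1rn (adjusted p = 4.43e-06), the interleukin-1 receptor antagonist.

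Genes of the hair follicle lists were called in both directions. Of 16 tested hair germ and matrix genes, 8 were lower and 2 higher (median -1.16). Lef1, a Wnt effector of the hair matrix, was at 7.24, 9.96, 7.92, 14.6 and 9.30 CPM after vismodegib and 51.1, 47.3, 45.6, 38.8 and 65.1 CPM in Ki67-negative nests (log2 fold change -2.34 ± 0.23, adjusted p = 1.21e-06). Hoxc13, needed for hair keratins, was at 3.08, 0.474, 2.57, 5.35 and 7.20 CPM against 97, 54.2, 47.5, 30.2 and 76.1 CPM (log2 fold change -4.01 ± 0.54, adjusted p = 5.42e-05). Foxn1, which promotes keratinocyte differentiation, was 1 of the 2 that rose, at 17.1 to 39 CPM against 0.299 to 5.74 CPM (log2 fold change 3.24 ± 0.52). Among 19 bulge stem cell genes 3 were higher and 7 lower, with 5 higher without Ki67-negative sample 5. Lhx2, which maintains follicle stem cells, was at 41.3, 63.6, 101, 93.2 and 51.9 CPM against 784, 719, 618, 337 and 857 CPM (log2 fold change -3.24 ± 0.30, adjusted p = 9.17e-07), and Tbx1, Tcf7l1 and Dkk3 of the bulge had log2 fold changes of -4.52 ± 0.53, -2.30 ± 0.24 and -2.03 ± 0.18. Lgr5, marked by the GFP reporter in these mice, was at 343, 433, 554, 884 and 385 CPM against 839, 708, 888, 535 and 941 CPM. It overlapped between groups and was not called (log2 fold change -0.59 ± 0.22, adjusted p = 0.0527), with vismodegib sample 4 high and Ki67-negative sample 4 low. Without vismodegib sample 4 the adjusted p was 0.00193 and without Ki67-negative sample 4 it was 0.0229. Lgr5 also passed with upper quartile scaling (adjusted p = 0.0383), total count scaling (0.0367), DESeq2 (0.0424) and limma voom (0.0311).

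The hair shaft and inner root sheath list gave 4 of 7 higher and 0 lower (median 0.84). That count was 2 with limma voom, with a term for Xist, with no filter on low counts and without vismodegib sample 2 or without Ki67-negative sample 1, 2, 3 or 5. Of 15 isthmus and infundibulum genes 12 were higher and 1, Prdm1, was lower (median 1.78). Sostdc1, a secreted Wnt and BMP antagonist, was at 558, 802, 889, 907 and 906 CPM against 162, 171, 88, 98.1 and 101 CPM (log2 fold change 2.71 ± 0.20, adjusted p = 4.96e-08). Sox7 was at 191, 136, 165, 77.8 and 256 CPM against 10.8, 13.6, 5.65, 24.8 and 16.5 CPM (log2 fold change 3.52 ± 0.40), and Aqp3, a glycerol channel of the epidermis, at 34.5 to 84.7 CPM against 1.61 to 5.28 CPM (log2 fold change 4.31 ± 0.53). Lgr6, which marks stem cells of the isthmus, did not pass (adjusted p = 0.47). Of 18 sebaceous genes 7 were higher and 0 lower, including Dgat2, a lipid enzyme (log2 fold change 2.46 ± 0.40). The sebaceous count was 14 without Ki67-negative sample 1. The summed sebaceous level overlapped between groups, from 717.6 CPM in vismodegib sample 2 to 10180 CPM in vismodegib sample 1, against 599 to 3187 CPM, with Ki67-negative sample 1 the highest.

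Genes for transcription factors of the SOX and forkhead families changed in both directions, with 6 of 23 tested higher and 8 lower. Sox21, a factor of the hair cuticle, was at 133, 114, 123, 103 and 190.4 CPM after vismodegib and 0.968, 4.53, 0.202, 2.87 and 2.99 CPM in Ki67-negative nests (log2 fold change 5.78 ± 0.53, adjusted p = 1.06e-06). Sox13 was at 14.5, 20.7, 44.3, 39 and 18.9 CPM against 428, 403, 369, 184 and 400.3 CPM (log2 fold change -3.69 ± 0.35, adjusted p = 1.57e-06). Neither overlapped between groups, and they moved in opposite directions. Sox9, which marks the outer root sheath and drives basal cell carcinoma growth in mice, was at 334 to 479 CPM against 561 to 819 CPM, lower by a smaller step (log2 fold change -0.67 ± 0.15, adjusted p = 0.00283). Sox4, of the hair germ, had a log2 fold change of -1.69 ± 0.24, and Foxq1, of the hair shaft, one of 2.71 ± 0.38. Mycl was higher, at 66 to 90 CPM against 4.94 to 15.3 CPM (log2 fold change 2.89 ± 0.33, adjusted p = 4.61e-06).

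Wnt genes had no common direction. Of 16 Wnt feedback targets, 4 were higher and 3 lower (median -0.20). Axin2, the most widely used Wnt readout, was at 112, 169, 152, 105 and 142 CPM after vismodegib and 35.8, 52.1, 17.6, 25.4 and 27.8 CPM in Ki67-negative nests (log2 fold change 2.09 ± 0.24, adjusted p = 4.95e-06). Tnfrsf19, a TNF receptor relative induced by Wnt, was at 209, 247, 196, 130.3 and 202 CPM against 18.6, 10.8, 13.9, 8.46 and 14.2 CPM (log2 fold change 3.90 ± 0.26, adjusted p = 3.45e-08). Both were separated between groups, as was Lef1 in the other direction. Rnf43, a ligase that removes Wnt receptors, also rose (log2 fold change 1.15 ± 0.19), whereas Lgr4, a receptor for R-spondins, fell (log2 fold change -1.17), and the 3 lower genes became 5 without vismodegib sample 4 or without Ki67-negative sample 4. Of 17 genes for ligands and their release, 6 were higher and 4 lower. Wnt3 and Wnt4, ligands of the basal epidermis, were at 3.89 to 25 and 44.2 to 96.8 CPM against 0.150 to 0.755 and 12.1 to 30.1 CPM. Porcn, the enzyme that attaches the lipid Wnt ligands need, was lower, at 25.3, 17.1, 28.7, 33.4 and 34.2 CPM against 86.8, 85.4, 149, 338 and 269 CPM (log2 fold change -2.74 ± 0.47, adjusted p = 0.000455). Of 23 receptors and antagonists 3 were higher and 7 lower, and the 7 became 4 without Ki67-negative sample 2. Fzd10 was higher, at 17.8 to 27.4 CPM against 0 to 1.42 CPM (log2 fold change 4.68 ± 0.56).

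The feedback genes of the ERK kinase pathway fell almost as a block. Of 17 tested, 13 were lower and 1 was higher (median -1.94). Etv5, a transcription factor switched on by FGF and ERK signalling, was at 10.3, 5.85, 6.73, 5.10 and 11 CPM after vismodegib and 69.2, 77.6, 90.5, 79.7 and 80.5 CPM in Ki67-negative nests (log2 fold change -3.35 ± 0.24, adjusted p = 3.95e-08). Dusp6, the phosphatase that turns ERK off, was at 10.6, 8.06, 13.1, 11.4 and 14 CPM against 111, 211, 299.9, 208 and 54.8 CPM (log2 fold change -3.94 ± 0.45, adjusted p = 1.11e-05). Spry4, a further inhibitor, was at 0.771 to 2.77 CPM against 8.98 to 47.5 CPM (log2 fold change -3.71 ± 0.45), and Etv4 at 0.633 to 5.35 against 49 to 91.1 CPM (log2 fold change -4.33 ± 0.44). None of these 4 overlapped. Epha4 was the 1 higher member (log2 fold change 0.76). Of 19 tested FGF and ErbB receptors and ligands, 4 were lower, 1 was higher and the rest were not called. In either direction 26.3% were called, below the 31.9% of all genes tested. Fgfr1, a receptor upstream of the pathway, was lower, at 161, 129.7, 162, 194 and 154 CPM against 530.3, 873, 938, 598 and 1087 CPM (log2 fold change -2.33 ± 0.25, adjusted p = 3.05e-06), and Fgfr3 had a log2 fold change of -1.02 ± 0.19. Among 19 immediate early genes, Egr3 (log2 fold change -1.75 ± 0.26) and Egr1 (log2 fold change -1.62 ± 0.39) were lower. Another Egr family gene was higher (log2 fold change 1.2, adjusted p = 0.0267). Of the 19, 3 were higher and 6 lower. That split was 5 higher and 3 lower without Ki67-negative sample 4. It was 1 higher and 7 lower without Ki67-negative sample 1 or 5, and 1 higher and 6 lower without sample 2 or 3.

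Immune signals made by the epidermis were higher after vismodegib. Of 20 epidermal immune signals, 16 were higher and 0 lower (median 2.90). Il33, an alarmin stored in keratinocyte nuclei, was at 55, 94.9, 43.1, 63.1 and 77 CPM after vismodegib and 0.161, 0.142, 0.202, 1.06 and 2.09 CPM in Ki67-negative nests (log2 fold change 6.43 ± 0.60, adjusted p = 8.7e-07). Skint8, a relative of the keratinocyte protein that selects epidermal gamma-delta T cells, was at 89.7, 79.9, 50.6, 57.6 and 114 CPM against 12.7, 9.21, 16.8, 18.1 and 12.7 CPM (log2 fold change 2.49 ± 0.24). Skint9, of the same family, was at 42.1, 34.5, 12.7, 26.5 and 27.5 CPM against 0.484, 0, 0, 0.151 and 0 CPM (log2 fold change 7.63 ± 0.64). Every vismodegib sample lay above every Ki67-negative one for these 3. Il33 and Skint9 were among genes named by a rule that required this, and 20.5% of all genes tested had groups without overlap. Ccl27a, a chemokine that draws T cells to the epidermis, was at 22.6 to 23.5 CPM against 1.61 to 4.68 CPM (log2 fold change 3.08 ± 0.40). Reads of Ccl27a and of the Skint family can be shared with close copies, so the split among copies is uncertain. Of 15 genes of class I antigen presentation, 5 were higher and 1 lower. H2-K1, a class I heavy chain, was at 1054, 709, 905, 959 and 812 CPM against 382, 483, 355, 680.2 and 336 CPM (log2 fold change 0.99 ± 0.17, adjusted p = 0.000296), B2m had a log2 fold change of 0.94 ± 0.17, and Tap2, a subunit of the peptide transporter, was the one that fell (log2 fold change -1.51 ± 0.32).

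Markers of immune and stromal cells moved as well, and in these bulk samples a change in the number of cells of a type and in RNA per cell cannot be told apart. Of 11 tested Langerhans and dendritic markers 7 were higher and 0 lower, and their summed level was 1159 to 2780 CPM in the vismodegib nests and 384.1 to 778.6 CPM in the Ki67-negative nests. Cd207, the langerin gene that defines Langerhans cells, was at 43.3, 39.4, 23.9, 33.5 and 33.8 CPM against 0.484, 2.27, 0, 4.38 and 5.98 CPM (log2 fold change 3.69 ± 0.76, adjusted p = 0.00171). H2-Ab1, a class II chain, was at 175 to 389.6 CPM against 31.9 to 85.4 CPM (log2 fold change 2.40 ± 0.46). T and NK markers summed to 121.9 to 188.3 CPM against 62 to 126.4 CPM, with 3 of 8 higher, Cd5 among them (log2 fold change 2.15 ± 0.36). That count was 1 when any 1 of vismodegib samples 1, 3 and 5 or of Ki67-negative samples 1, 2, 3 and 5 was left out. Macrophage and monocyte markers summed to 119.9 to 383.8 CPM against 108.1 to 538.6 CPM, with 1 of 13 higher and 1 lower (median -0.42). The higher one was Csf1r, a receptor of macrophages and Langerhans cells, at 43.1 to 69.1 CPM against 8.55 to 28.3 CPM (log2 fold change 1.76 ± 0.33). Mast cell and neutrophil markers reached 2921 CPM in Ki67-negative sample 4 against 134.3 to 653.0 CPM in the rest of its group. No B cell, plasma cell or fat cell marker passed the filter on low counts. The part of these cells in the immune gene changes above was not tested.

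Some stromal markers were lower. Fibroblast markers summed to 497.6 to 3685 CPM after vismodegib and 2710 to 4993 CPM in Ki67-negative nests, with 6 of 14 lower and 0 higher. The fibrillar collagens Col1a1, Col1a2 and Col3a1 were not called, and Col1a1 passed without vismodegib sample 5 (adjusted p = 0.016). Pdgfrb, a receptor of fibroblasts and pericytes, was at 12.3 to 25.4 CPM against 40.8 to 83.8 CPM (log2 fold change -1.72 ± 0.29). Pericyte and smooth muscle markers summed to 151.0 to 270.9 CPM against 717.7 to 1108 CPM, with 6 of 9 lower and the rest not called. Cspg4 was the most abundant of them in the Ki67-negative nests, with a median of 507 CPM beside 803.5 CPM for the sum. Cspg4 was at 53.6, 87.3, 68.8, 55.9 and 68.1 CPM against 470.0, 508, 478, 507 and 797 CPM (log2 fold change -3.05 ± 0.23, adjusted p = 4.96e-08), and Mcam at 8.02 to 17.6 CPM against 80.4 to 136 CPM (log2 fold change -3.13 ± 0.21). Both genes are also made by some epithelial and tumour cells. Endothelial markers summed to 30.2 to 67.4 CPM against 16.5 to 106.9 CPM, with the groups overlapping. Melanocyte markers summed to 130.9 to 472.6 CPM against 229.8 to 1315 CPM, with 3 of 9 lower and 1 higher, and 6 lower without Ki67-negative sample 4. Their part in the matrix gene changes below was not tested.

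**Figure D5:**
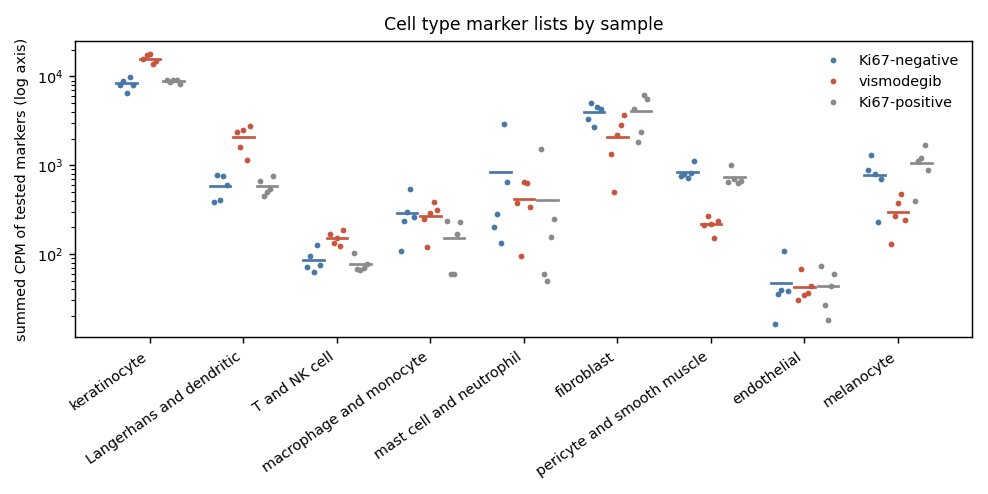
Summed CPM of the tested markers of 9 cell types in each sample on a log axis, with bars at group means. Keratinocyte and Langerhans sums of the vismodegib nests lie above all Ki67-negative samples. Pericyte sums, to which Cspg4 adds most in the Ki67-negative nests, lie below them. For mast cell and neutrophil markers, 1 Ki67-negative sample is high at 2921 CPM.

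More collagen and matrix protease genes were lower than higher. Of 20 collagen chain genes 13 were lower and 1 was higher (median -1.38), and of 21 matrix proteases and their inhibitors 8 were lower and 1 higher (median -0.52), with 7 and 2 without Ki67-negative sample 4. Col14a1, a fibril-associated collagen, was at 2.93, 2.21, 2.57, 6.93 and 3.14 CPM after vismodegib and 344, 182, 299.7, 61.6 and 186 CPM in Ki67-negative nests (log2 fold change -5.90 ± 0.47, adjusted p = 3.95e-07). Ki67-negative sample 4 was the lowest of its group and still far above the highest vismodegib sample. A rule that named Col14a1 required groups without overlap, found in 20.5% of all genes tested. Among chains of basement membrane collagen, Col4a1 and Col4a2 had log2 fold changes of -1.79 ± 0.24 and -1.40 ± 0.21, while Col4a6 was the 1 higher member of the list (1.16 ± 0.27, adjusted p = 0.0028). Col18a1 had a log2 fold change of -1.37 ± 0.18, and Col1a1, Col1a2 and Col3a1 were not called. Mmp14, a membrane-bound collagenase, was at 58, 50.4, 55.9, 89.6 and 79.5 CPM against 187, 218, 169, 246 and 245 CPM (log2 fold change -1.67 ± 0.18, adjusted p = 2.52e-06). Vcan, which encodes the proteoglycan versican, was at 17.6 to 188 CPM against 428 to 1499.6 CPM (log2 fold change -3.71 ± 0.56). Among 25 axon guidance genes, which also steer epithelial cells, 6 were higher and 7 lower. Nrp2, a semaphorin receptor, was lower, at 18.7 to 95.5 CPM against 204 to 652 CPM (log2 fold change -2.97 ± 0.39), and Plxna2 was higher, at 83 to 146 CPM against 34.9 to 54.5 CPM (log2 fold change 1.56 ± 0.22).

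Most genes tested for protein synthesis and respiration were higher after vismodegib. Of 26 tested cytoplasmic ribosomal protein genes 21 were higher and 0 lower (median 1.01, range -0.28 to 1.51), and all 20 respiratory chain genes tested were higher (median 0.90, range 0.41 to 1.41). The summed level of the ribosomal protein genes was 5213 to 7732 CPM after vismodegib and 2215 to 3264 CPM in Ki67-negative nests. Cox5a, a subunit of complex IV, was at 61.5, 55, 87.7, 72.4 and 76.2 CPM against 37.8, 32, 22, 41.7 and 28.6 CPM (log2 fold change 1.12 ± 0.20, adjusted p = 0.00036). Neither the ribosomal sum nor Cox5a overlapped between groups. These are short genes, and fold change fell with gene length over all genes: the median log2 fold change was 0.14 in the shortest 20% of genes and -0.14 in the longest 20%. With a length trend removed within each sample, 18 ribosomal genes (median 0.84) and 19 respiratory genes (median 0.77) were higher. Ribosomal protein genes have many pseudogenes, to which uniquely aligned reads can be lost. Of 18 glycolysis genes 3 were higher and 1 lower, the latter Hk2, hexokinase 2 (log2 fold change -1.51 ± 0.37). That split was 2 and 2 without Ki67-negative sample 3 and 5 and 1 without sample 4.

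Some of the steepest falls were in genes outside the lists. Pkhd1l1, a large membrane protein, was at 3.55, 2.06, 3.27, 4.62 and 3.67 CPM after vismodegib and 387, 208, 456, 105 and 346 CPM in Ki67-negative nests (log2 fold change -6.43 ± 0.49, adjusted p = 2.62e-07). Dio2, which converts thyroid hormone to its active form, was at 8.02, 14.9, 4.35, 20.7 and 2.23 CPM against 444, 507, 648, 358 and 502 CPM (log2 fold change -5.62 ± 0.47, adjusted p = 7.47e-07). Grm7, a glutamate receptor, was at 0.308, 0, 0, 0.486 and 0.917 CPM against 74.5, 64, 71.1, 25.5 and 49.4 CPM (log2 fold change -7.32 ± 0.55, adjusted p = 8.62e-08). Cntfr, a cytokine receptor subunit, was at 0.158 to 4.45 CPM against 101 to 215 CPM, Cxxc4, an inhibitor of Wnt signalling, at 3.64 to 23.7 CPM against 195 to 534 CPM, and Ephb1, an ephrin receptor, at 0 to 0.949 CPM against 5.59 to 53.1 CPM. These 6 genes were named by a rule that required non-overlapping groups, so all vismodegib samples lay below all Ki67-negative samples by that choice. Over all genes tested, 20.5% had groups that did not overlap. The Ki67-positive nests had medians of 353 CPM for Pkhd1l1, 469.5 CPM for Dio2 and 46.8 CPM for Grm7, at the level of the Ki67-negative nests.

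No sample, when left out alone, reversed the sign of any of the 5513 called genes. Without Ki67-negative sample 5, 2594 genes were higher and 2659 lower, and without Ki67-negative sample 4, 2826 and 2945. A term for Xist above Ddx3y gave 2657 higher and 2817 lower. Similar totals did not mean the same genes: with that term, 4930 of the 5513 were still called in the same direction. Leaving out a single vismodegib or Ki67-negative sample kept between 4493 (without vismodegib sample 3) and 5078 (without Ki67-negative sample 4) of them.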

How the data were processed

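Polyadenylated RNA of laser-captured nests was sequenced. Per the submitters' processing notes, GSNAP and GRCm38 were used. The deposited counts give, per the file headers, the number of uniquely aligned reads per gene model, and the deposited RPKM values are those counts scaled to gene length and to a size factor per library. How strand was used, and which annotation release, is not given in the sources used here. Overlapping and antisense genes may therefore share reads. RPKM served only for keratin levels and a check of the counts.

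Of 36528 gene IDs, 31049 (85%) had a symbol in RefSeq. Depth was 4887381 to 10328822 counts over the 10 samples compared. Genes passing edgeR's filterByExpr (minimum count 10, minimum total 15) were kept. All 15 samples entered 1 fit (TMM scaling, quasi-likelihood test in edgeR 4.0.16, R 4.3.3) with Benjamini-Hochberg adjustment over all 17282 genes and a threshold of 0.05, without covariates. CPM values are TMM-scaled. Alternatives used limma 3.58.1 and DESeq2 1.42.0, and the fit was tested on simulated data. Samples were grouped by label and numbered in accession order. Intervals on count ratios cover counting error only.

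Members and gene lists were chosen with earlier results of these data known. Named genes were the 15 largest rises and falls with non-overlapping groups and average log2 CPM of at least 3, a fixed set around Hedgehog, Ki67 and Lgr5, up to 5 members per list by adjusted p (or, where none was called, the 2 most abundant), and the 5 leading genes of the Ki67 contrast in each direction. Of the genes named, Birc5, Cdc20, Cdk1, Cdkn1b, Cenpa, Cenpe, Cenpf, Cep55, Cit, Col1a1, Col1a2, Col3a1, Col4a6, Col7a1, Epha4, Flg, Igfbp3, Itga3, Kif11, Kif14, Kif15, Kif20b, Kif23, Krt16, Lama3, Lgr4, Mycn, Ndc80, Plk1, Racgap1, Sfrp1 and Trp63 lie outside that rule and were chosen after their values were seen. Some genes are not reported here.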

Additional observations from a re-analysis of the deposited data

Results flagged for a closer look

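For each gene named above and each group of 5 samples, the highest or lowest sample was compared with the spread of its group, and 14 of 300 groups had a sample set far apart, where chance gives about 1 in 20. Vismodegib sample 4 was the highest of its group for Col14a1 (6.93 CPM), Cxxc4 (23.7 CPM), Perp (5280 CPM) and Vcan (188 CPM), and the lowest for Tob1 (72.2 CPM). Ki67-negative sample 4 was the highest of its group for Il1b (323 CPM), Il1rn (208 CPM) and Krt16 (164 CPM), and the lowest for Sox13 (184 CPM). Ki67-negative sample 5 was the highest for Cspg4 (797 CPM) and Plk1 (13.5 CPM), the lowest for Rfc3 (4.19 CPM), and the lowest for genes with a count (19669). Ki67-negative sample 2 was the highest for Flg (22.8 CPM).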

How the results depend on the processing

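Over 10 alternatives for scaling, filter, tool, samples and effect size, and over each sample left out in turn, no gene called between vismodegib and Ki67-negative nests changed sign. Requiring a change above 1.5-fold (glmTreat) gave 1070 higher and 1350 lower genes, and 0 between Ki67-negative and Ki67-positive nests. The other scalings, filters, tools and fits stayed within 1.5 times of the reported 2658 and 2855. The Ki67 contrast gave 88 genes by DESeq2, 15 by limma voom, 0 in a fit of those groups alone, and 0 to 43 with 1 sample left out. Alternatives chosen after seeing the data were, for the vismodegib comparison, each Ki67-positive sample left out, and for both, Ki67-negative samples 4 and 5 both left out (0 genes in the Ki67 contrast, and 1 called gene with its sign reversed between vismodegib and Ki67-negative nests) and the length trend. Values that crossed 0 were those of genes not called. Plk1 ranged from -0.26 to 0.31 on the log2 scale over samples left out and was 0.39 without both, Sfrp1 ranged from -0.38 to 0.12 and Trp63 from -0.05 to 0.09. The cause of these shifts was not tested. No paired analysis was possible because the labels give no replicate numbers. Of the named genes' values under all settings, 3903 kept their side of the threshold, 61 lost it, 23 gained it and 6 crossed 0. Low counts limit genes near absence in one group, where fold changes depend on few reads.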
